A study of Mus musculus with 19 samples.

Results

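The resting translational efficiency (TE) of mouse hippocampal slices was taken from the basal, vehicle-treated slices alone. TE was the log2 ratio of ribosome-protected fragments (RPFs) to RNA for each gene, both as CPM, counts scaled to the total of their library, in each of 4 replicates that had both libraries. A gene was kept when it had 20 or more counts in all 8 libraries, which left 10976 of the 20436 genes in the tables. These genes held 99% of the counts of every library. The 8 libraries were among 19 in the series, which compares resting slices with slices stimulated with DHPG, an agonist of group 1 metabotropic glutamate receptors, and no stimulated library was used.

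All slices came from wild-type male mice at postnatal day 28 to 42. They were given artificial cerebrospinal fluid for 5 min and then cycloheximide, which holds ribosomes in place, at 100 µg/ml and 4 °C. The methods describe slices of several mice pooled for a sample, a lysate cleared by centrifugation and divided between both library types, and area CA3 left in the slices of the first batches. Each value is therefore an average over all cell types of the slice, and a ratio cannot tell different cells apart. Another basal RPF library had no RNA partner and was left out.

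An mRNA carries ribosomes in numbers set by how often they start and by how long they take to cross the coding sequence, so ribosome density reads both and is not a rate of protein output. Cells hold some mRNAs back at rest and load others heavily. Textbook cases are mRNAs that begin with a terminal oligopyrimidine (TOP) tract, which mTOR signaling controls, mRNAs with short reading frames ahead of the main one, which respond to stress, and ferritin mRNA, which an iron-sensing protein blocks.

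The start of several ribosomal protein mRNAs is printed here because the tract at the first bases is what defines the TOP class. Sequences are the first 20 bases from the annotated RefSeq start (GRCm38.p6), 5′ to 3′, with the opening run of C and T in capitals.
Rpl14: CTTCTCgctgagcgccgcca
Rps18: CTCTCTTCCacaggaggcct
Rps10: CTTCCTTTCCagcctccgcc
Rps6: CTCTTTTTCgtgacgcctcc
Rpl15: CTTCCTTTCCTCTggcggca
Rpl38: CTTTCCCCgttctcttcggt

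These starts lie at chr9:120571517-120571536 on the plus strand for Rpl14, chr17:33955646-33955665 on the minus strand for Rps18 and chr17:27635225-27635244 on the minus strand for Rps10. Rps6 starts at chr4:86857348-86857367 on the minus strand, Rpl15 at chr14:18270967-18270986 on the minus strand and Rpl38 at chr11:114668580-114668599 on the plus strand. A C followed by at least 4 pyrimidines stood at an annotated start of 14 of the 61 ribosomal protein genes with a promoter sequence (23.0%), against 3.01% of all 27025 genes in that table. The 6 genes shown ran from a mean TE of −3.05 for Rpl14 to 0.97 for Rpl38.

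The libraries were deep enough to order most genes. RNA libraries held 4899202 to 6873967 counts and RPF libraries 6500934 to 22092434. The median log2 ratio was −0.12 to −0.18 in the 4 replicates and was set to 0 in each, so every TE below is relative to the median gene. TE values of 2 replicates correlated across genes with a Pearson r of 0.84 to 0.97, where genes share their libraries and are no independent replicates. The median SD of a gene's TE over the 4 replicates was 0.28, and it went from 0.38 in the decile of genes with the fewest counts to 0.23 in the decile with the most. In RNA the 4 neuronal markers summed to 3214 to 4594 CPM, the 5 astrocyte markers to 2427 to 2622 CPM and the 5 oligodendrocyte markers to 2278 to 4447 CPM. The 3 markers of CA1 summed to 339 to 562 CPM, while those of the endothelium and choroid plexus stayed between 24.8 and 48.4 CPM. The 3 markers of CA3 summed to 133.9 to 150.5 CPM, and 2 of them reached the count minimum. The CA3 marker Iyd and the choroid plexus markers Ttr and Folr1 did not.

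A measured difference between RNA libraries ran along base composition. In RNA replicates 2 and 3, genes with a high GC content in their coding sequence lay above their 4-library mean (Spearman rho of 0.44 and 0.67 across 10941 genes), and in replicates 1 and 4 they lay below it (−0.51 and −0.61). RPF libraries deviated the opposite way, about as strongly in replicate 2 (rho of −0.43). In replicates 1, 3 and 4 their rho was smaller than that of RNA, at 0.20, −0.265 and 0.38. The correlation of TE itself with coding GC content was accordingly −0.42 and −0.48 in replicates 2 and 3, and only −0.19 and −0.09 in replicates 1 and 4. Calm2, 1 of 3 genes for the calcium sensor calmodulin, shows its size. Calm2 RNA was 284, 126, 108 and 354 CPM in replicates 1 to 4, while its RPFs were 1823, 2167, 1697 and 1742 CPM. Its TE was therefore 2.86, 4.27, 4.10 and 2.45, high in every replicate but with an SD of 0.90. What made the RNA libraries differ was not tested.

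TE covered a wide range. Its SD across genes was 1.06 on the log2 scale, and the gene at the 90th percentile had 6.16 times the ratio of the gene at the 10th. A gene was called high or low when edgeR's quasi-likelihood test with the replicate as a block gave a Benjamini-Hochberg adjusted p under 0.05 and the mean TE was at least 2-fold from the median gene. On that rule 1733 genes were called high (15.8% of those tested) and 1814 low (16.5%). In 2122 genes all 4 replicates were at least 2-fold away on the same side. The plot of RPF against RNA shows where the families below lie.

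**Figure D1:**
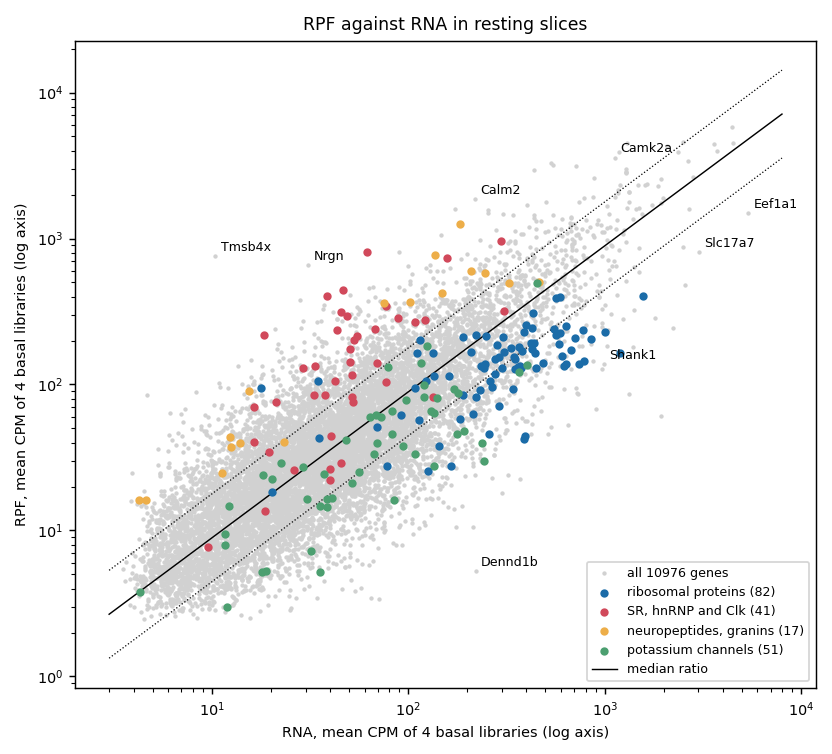
Mean RPF CPM against mean RNA CPM of the 4 basal replicates, both on log axes, for all 10976 genes (grey) and 4 families (coloured). The solid line is the median ratio and the dotted lines are 2-fold to either side. Ribosomal protein genes lie mostly along or below the lower line, and SR, hnRNP and neuropeptide genes mostly above the upper one.

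The 10 genes highest in TE among those called were Tmsb4x, Nrgn, Ubald1, Cplx2, Hnrnpd, Hnrnpa2b1, Ssb, Eif3j1, Esf1 and Hnrnpa3, with mean TE from 6.42 down to 3.64. Tmsb4x encodes thymosin beta 4, a small protein that binds actin monomers. Its RNA was 9.51, 11.02, 15.6 and 5.53 CPM and its RPFs were 766, 805, 811 and 632 CPM. Nrgn encodes neurogranin, a calmodulin-binding protein of dendrites. Nrgn RNA was 33.0, 31.4, 39.1 and 19.8 CPM against RPFs of 638, 638, 600 and 746 CPM, a TE of 4.60 ± 0.56 (SD, n = 4; edgeR adjusted p = 3.48e-06). Cplx2 encodes complexin 2, a regulator of vesicle fusion, and had 46.9, 20.4, 16.5 and 28.1 CPM of RNA against 354, 364, 369 and 440 CPM of RPFs. Its TE was 4.04 ± 0.66 (edgeR adjusted p = 6.86e-06). Hnrnpd, Hnrnpa2b1 and Hnrnpa3 encode nuclear proteins that bind pre-mRNA, and Ssb encodes the La protein, which binds the ends of small RNAs. No replicate of these 10 genes came below 2.75. RNA of Ubald1, Esf1 and Eif3j1 went down to 3.61, 3.32 and 4.53 CPM in a library, so their TE rests on few RNA counts. All 30-base windows of the counted sequences of Eif3j1 and Hnrnpa3 also occurred in another annotated gene.

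Coding length sets a limit on 2 of the highest values, those of Tmsb4x and Nrgn. RPFs were counted over the coding sequence less 30 nt at each end, so a short gene leaves few bases to count. The counts that ran short were those of RNA: Tmsb4x had 38 to 103 RNA counts in a library, against 4983 to 17906 RPF counts. Coding sequences of an extreme and of a ribosomal protein gene are printed whole, with the counted part in capitals.
Tmsb4x: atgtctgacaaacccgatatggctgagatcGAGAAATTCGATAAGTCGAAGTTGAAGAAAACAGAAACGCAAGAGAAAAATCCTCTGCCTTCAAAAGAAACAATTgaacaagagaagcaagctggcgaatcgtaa
Rpl39: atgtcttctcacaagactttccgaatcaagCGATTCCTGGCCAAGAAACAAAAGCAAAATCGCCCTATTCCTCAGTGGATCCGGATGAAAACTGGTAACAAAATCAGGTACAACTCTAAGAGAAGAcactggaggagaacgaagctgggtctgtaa

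Both are from GENCODE M21 on GRCm38, Tmsb4x at chrX:167207093-167209315 and Rpl39 at chrX:37082520-37085402, each on the minus strand. The counted part is 75 nt of 135 in Tmsb4x, 96 of 156 in Rpl39 and 177 of 237 in Nrgn. Rpl41, with 18 nt left, had 0 counts in all 8 libraries. Tmsb10, as short as Tmsb4x, had RPF counts of 426, 1108, 1333 and 402 but RNA counts of only 5, 3, 7 and 3, and so failed the count minimum through its RNA. Among genes with 400 or more RPF counts in all, 3 of 4 with coding sequences under 150 nt had fewer than 80 RNA counts in all, against 0 of 1524 with 3000 nt or more. TE of the shortest genes therefore rests on few RNA counts and may be too high. Why their RNA counts were few was not tested. With coding GC content and length accounted for, Tmsb4x was at 3.28 and Nrgn at 3.62, both still called high. For TE the methods kept only transcripts longer than 300 nt. With a minimum of 300 nt of coding sequence the calls here were 1642 high and 1771 low.

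The 10 lowest genes included Dennd1b, Adra2c, Metrn, Gal3st1, Map3k10, Mllt6, Cenpb, Adcy1 and Smo, with mean TE from −5.21 up to −3.70. Dennd1b, which activates a Rab GTPase of endosomes, had 150, 224, 259 and 250 CPM of RNA and 5.08, 5.01, 4.75 and 6.24 CPM of RPFs. Adcy1 encodes a calmodulin-stimulated adenylyl cyclase. Adcy1 had 1207, 1305, 1323 and 1464 CPM of RNA against 79.1, 83.8, 82.9 and 99.3 CPM of RPFs, and its TE of −3.79 ± 0.06 (SD, n = 4; edgeR adjusted p = 2.84e-06) had a smaller spread than any other gene named here among the 10 highest and 10 lowest. Adra2c and Smo are membrane receptors, Gal3st1 makes the myelin lipid sulfatide and Map3k10 is a stress kinase. All 4 replicates of these genes were at −3.20 or below. Over all calls, the median coding length was 879 nt for high genes, 1485 nt for genes not called and 2007 nt for low genes.

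Genes were also described by 43 families in 11 classes, 1482 genes in all. In 22 families the median was above the median gene in all 4 replicates and in 12 it was below in all 4. The plot of family medians gives every replicate.

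**Figure D2:**
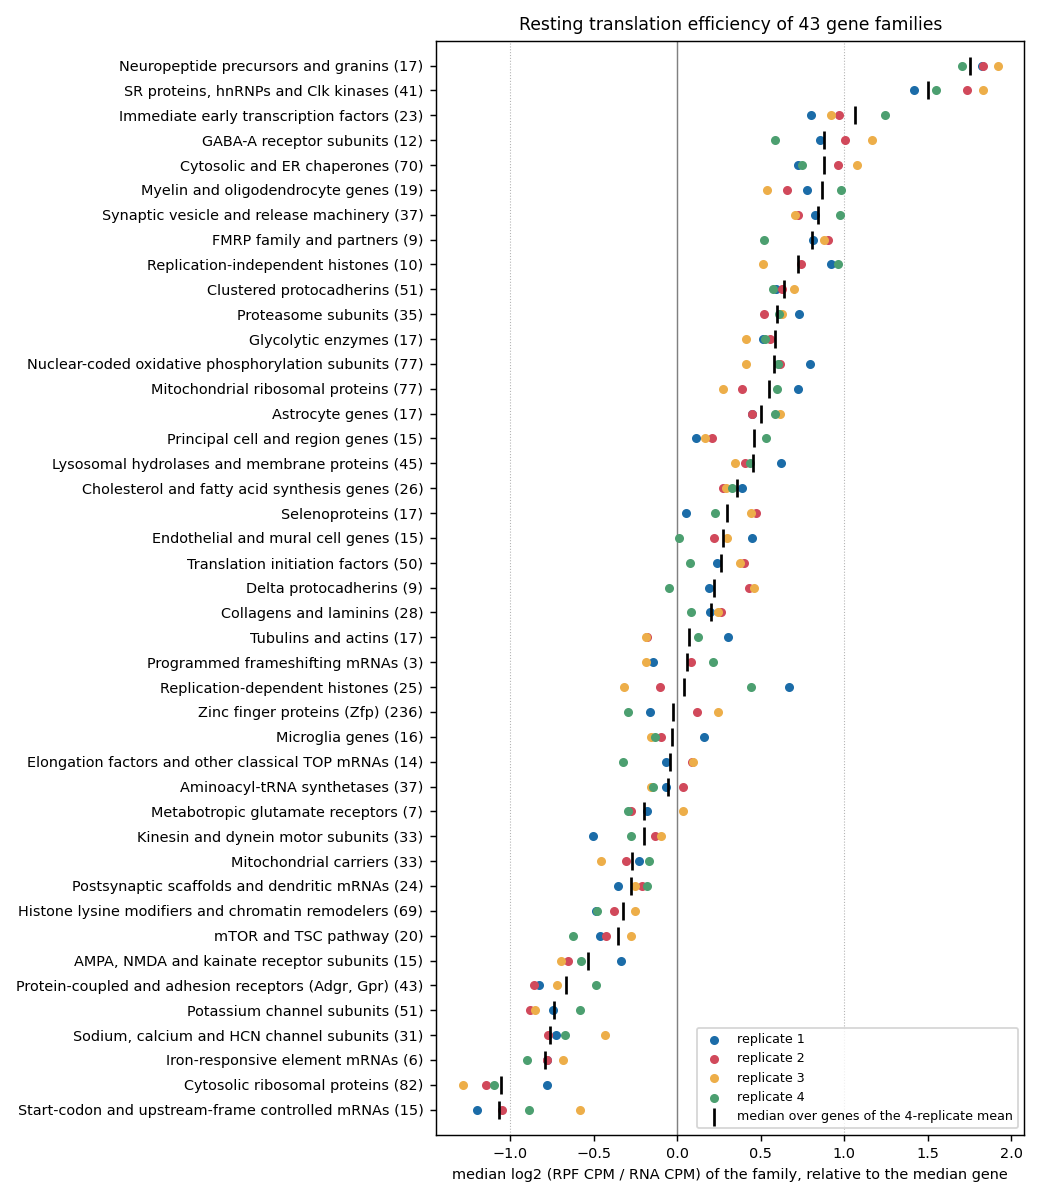
Median TE of each of 43 gene families (log2, relative to the median gene), with 1 point for each replicate and a black bar for the median over genes of the 4-replicate mean. The number of genes is in brackets and dotted lines mark 2-fold. Neuropeptides lead at 1.75, and ribosomal proteins and start-codon and upstream-frame controlled mRNAs are lowest at −1.06 and −1.07.

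Parts of the translation machinery had unlike values. Cytosolic ribosomal proteins, the subunits of the ribosome itself, had medians of −0.78, −1.15, −1.28 and −1.10 in replicates 1 to 4. Of 82 genes, 46 were called low and 2 high. They took 3.04% ± 0.28 of RNA counts (SD, n = 4) but 1.23% ± 0.08 of RPF counts. Rpl14 was lowest, with 325, 404, 458 and 368 CPM of RNA and 53.2, 37.8, 35.0 and 43.8 CPM of RPFs. Rps12 at −3.005 and Rps2 at −2.69 came next, and the highest were Rpl36al at 1.75 and Rpl39 at 2.57. Small-subunit genes had a median of −1.31 (32 genes) and large-subunit genes of −1.01 (48 genes), a split chosen after the values were seen. Ribosomal protein genes have many processed pseudogenes, and the study kept uniquely mapped reads. A median of 97.4% of the 30-base windows of their counted sequences also occurred in another annotated gene, and 91.3% of 60-base windows, so their counts are uncertain. Only 1 of the 82 had under 5% shared windows, and the part of shared reads in the family's low TE was not tested. The 14 genes with a tract at their start had a median of −0.99, and the 47 without had −1.03. Outside the family, genes with the tract had a median of 0.07 (236 genes) and those without 0.01 (8050). The tract was read at annotated starts only, which need not be the first base of the mRNA in these slices. A gene counted as without it may still make a TOP mRNA, so these medians cannot show whether the tract goes with TE.

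The elongation factors and other classical TOP mRNAs had a median of −0.04 over 14 genes, 4 called low and 2 high. Of all genes, 16.5% were called low and 15.8% high. Eef1a1, which delivers aminoacyl-tRNA, had TE of −1.58, −1.69, −1.58 and −1.91 on 5375 CPM of RNA, the mean of 4 libraries. Eef2, which moves the ribosome along, had −1.34 ± 0.27 (edgeR adjusted p = 4.16e-05) and was called low. With coding GC content and length accounted for, Eef2 was at −0.78 and no longer called. Eef1g was at −1.75 and Gnb2l1, a scaffold protein of the small subunit, was lowest at −1.85. Pabpc1, the poly(A)-binding protein, was at −0.78 and not called, and Eef1b2 at 0.04 and Tpt1 at 0.39 were not called either. Npm1, a nucleolar chaperone, was highest at 3.09, and Nap1l1, a histone chaperone, had 2.17. A median of 67.1% of this group's windows were shared.

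Mitochondrial ribosomal proteins lay above the median gene. Their medians were 0.72, 0.39, 0.27 and 0.60, and at a minimum of 100 counts the family median was 0.15. Of 77 genes 20 were called high and none low. Mrps36 was highest at 2.31 and Mrps24 lowest at −0.96. Translation initiation factors had a median of 0.26, with 14 of 50 called high and 4 low. Eif3j1 at 3.70 was highest, all of its windows shared, and the start-site factors Eif1ax at 2.49 and Eif1 at 2.17 were also called high. Eif4e3, a cap-binding protein, was lowest at −1.74. Aminoacyl-tRNA synthetases, which charge tRNAs, had a median of −0.05. Within them the 17 genes whose symbols end in 2, the mitochondrial enzymes, had a median of −0.72 with 6 called low. The other 20 had a median of 0.31 with 2 called high, Dars at 1.10 and Nars at 1.37. That division was also chosen after the values were seen.

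mRNAs with known start-codon or upstream-frame control were as low as ribosomal proteins by the mean over replicates, with medians of −1.07 and −1.06. In replicates 2, 3 and 4 ribosomal proteins were the lower of the pair, and at a minimum of 100 counts the upstream-frame median was −0.575 against −1.07 for ribosomal proteins. Of 15 genes, 8 were called low and none high, and the replicate medians were −1.20, −1.05, −0.58 and −0.89. Ppp1r15a, a phosphatase subunit that ends the stress response, had 70.7, 74.1, 75.1 and 83.9 CPM of RNA and 10.2, 9.60, 9.73 and 10.6 CPM of RPFs. Its TE was −2.77 ± 0.10 (edgeR adjusted p = 3.10e-06). Atf4, a transcription factor of the integrated stress response, had 138, 160, 170 and 158 CPM of RNA and 26.8, 23.5, 20.9 and 22.2 CPM of RPFs. Its TE was −2.59 ± 0.30 (edgeR adjusted p = 4.93e-06), and none of its windows were shared. Slc35a4 was at −2.096, Ddit3 at −1.37 and Ppp1r15b at −1.07, all called low. The log2 TE of Ppp1r15b was −0.995 without replicate 1, just inside the 2-fold limit. The polyamine enzymes Amd1 at −1.93 and Odc1 at −1.64 were called low too, with 100% and 82.3% of their windows shared. Bace1, the beta-secretase, at −0.39, Azin1 at −0.27 and Eprs at 0.99 were not called. Among the 11 genes of the family with under 5% of windows shared the median was −0.33, so the family median rests on genes with shared sequence as well. Azin1 had TE of −0.72, 0.14, 0.37 and −0.89, so its replicates fell on both sides of the median gene. Atf5 was below the count minimum, with as few as 9 RPF counts in a library.

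The ferritin light chain gene Ftl1 carries the best-known control element of this kind, an RNA hairpin in the leader that iron regulatory proteins bind. A stretch of its leader with the conserved bulged C and the loop in capitals (transcript base 84 is the bulged C) is printed for that reason.
Ftl1: gtgtcttgCttcaaCAGTGTttgaacgg

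Ftl1 lies at chr7:45457944-45459884 on the minus strand of GRCm38. Its RNA was 415, 624, 656 and 435 CPM and its RPFs were 61.7, 49.6, 45.8 and 46.5 CPM. TE was −2.57, −3.49, −3.72 and −3.08, the lowest of 6 genes in the iron-responsive element family, and 95.03% of its windows were shared. Cdc42bpa was the other one called low, at −1.28. Tfrc, the transferrin receptor, whose elements lie behind the coding sequence, had 0.78, 0.92, 1.43 and 0.24 and was not called, but without replicate 4 it was, at 1.04. The letters alone are common: a C, 5 bases of any kind and CAGTG, read on the sense strand, were found in 8.82% of 10790 leaders, and those 952 genes had a median TE of −0.03. The frameshifting mRNA Oaz1, the polyamine sensor antizyme, was at −1.82 with 90.1% of windows shared, while Oaz2 at 0.06 and Peg10 at 0.09 were not called.

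Neuropeptide precursors and granins, the cargo of dense-core vesicles, had the highest median of the 43 families, with 1.83, 1.83, 1.92 and 1.71 in the replicates. Of 17 genes 14 were called high, none was called low, and all 17 were above the median gene. They took 0.20% ± 0.01 of RNA counts and 0.56% ± 0.04 of RPF counts. Chgb, a granin, was highest with TE of 2.26, 3.62, 3.85 and 2.36, and its RPFs of 1214, 1510, 1311 and 961 CPM were steadier than its RNA of 286, 138, 98.97 and 208 CPM. Npy had 2.70 ± 0.17, Chga 2.40 ± 0.13 and Sst, which marks an interneuron class, 2.02 ± 0.32. Cck at 0.80 and Pcsk1n at 0.29 were not called. With coding GC content and length accounted for, 11 of the 17 were still called high, where 10.6% of all genes were.

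Synaptic vesicle and release genes had a median of 0.84, with 15 of 37 called high and 4 low. Vamp2 and Snap25 form the fusion complex. Vamp2 had TE of 3.36, 3.08, 3.04 and 4.00, and Snap25 2.53, 3.29, 3.55 and 2.54. Cplx1 at 2.23 and Syt1, the calcium sensor of release, at 1.75 were also called high. The active-zone scaffold Rims1 was low at −1.12, as was Syt7 at −1.54. Slc17a7, the vesicular glutamate transporter, was the lowest at −1.71 ± 0.43. Its RNA of 2524, 3490, 3982 and 2080 CPM exceeded that of Snap25 in every replicate, whereas its RPFs of 778, 820, 800 and 811 CPM were below Snap25's 2927, 2978, 2798 and 3054 CPM.

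Postsynaptic and dendritic mRNAs were spread over nearly the whole range, with a median of −0.28, 3 of 24 called high and 6 low. Of all genes, 15.8% were called high and 16.5% low. Camk2a, the kinase central to synaptic plasticity, had 1090, 1124, 1209 and 1080 CPM of RNA and 3182, 3312, 3552 and 4276 CPM of RPFs. Its TE was 1.72, 1.73, 1.68 and 2.14 (edgeR adjusted p = 9.43e-06), and that of Camk2b was 0.32, not called. Map2, the dendritic microtubule protein, had 1.64 ± 0.56. In contrast the large scaffold Shank1 had 888, 1198, 1220 and 643 CPM of RNA but RPFs of 128, 128, 133 and 160 CPM. Its TE was −2.62, −3.07, −3.07 and −1.85. Ddn, which encodes dendrin, was lowest at −3.06 ± 0.37, on RNA of 1753 to 2490 CPM. Dlgap3 at −2.45, Ppp1r9b at −2.03, Shank3 at −1.76 and Dlg4, which encodes PSD-95, at −1.33 were all called low. Shank2 at 0.07, Homer1 at 0.06 and the immediate early mRNA Arc at 0.23 were not. The family median was 0.25, and Shank3 and Dlg4 were no longer called once coding GC content and length were accounted for.

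**Figure D3:**
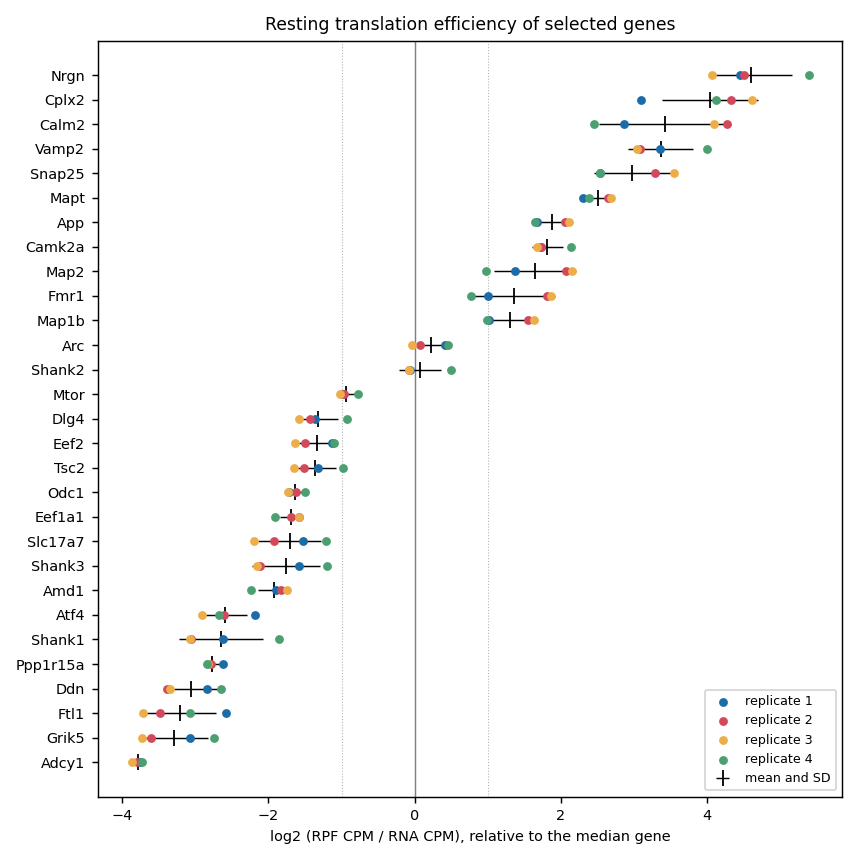
TE of selected genes in each of the 4 replicates (log2, relative to the median gene), with the mean and SD in black and dotted lines at 2-fold. Genes run from Nrgn at 4.60 to Adcy1 at −3.79. For Cplx2, Calm2, Snap25, Map2 and Fmr1 replicates 2 and 3 lie above replicate 1, and for Shank1, Ddn and Slc17a7 below it.

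Receptor and channel subunits were mostly on the low side, with exceptions by subtype. Of 15 ionotropic glutamate receptor subunits 5 were called low and 2 high, where 16.5% and 15.8% of all genes were. The family median was −0.53. The AMPA subunits Gria2 at 1.27 and Gria3 at 1.39 were high, the obligatory NMDA subunit Grin1 was at 0.75, and Grin2c was low at −2.70. Kainate subunits ran from −3.29 for Grik5 to −0.25 for Grik2. Metabotropic glutamate receptors, the targets of DHPG, had a median of −0.20. Grm5 was at −0.35 and not called, and Grm4 was low at −1.97. GABA-A receptor subunits had a median of 0.88, with 5 of 12 called high, none low, and Gabra2 highest at 1.63. After coding GC content and length were accounted for, the GABA-A median was 0.49 with 1 of 12 high, a share near the 10.6% of all genes. Gabra2 at 0.9998 was then not called. The median of the ionotropic glutamate receptor subunits was then −0.17, with 3 low and 3 high, where 12.8% and 10.6% of all genes were.

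Potassium channel subunits, which set resting and firing properties, had medians of −0.74, −0.88, −0.85 and −0.58. None of 51 was called high and 20 were called low, among them Kcnh3 at −2.83, Kcnn1 at −2.62 and Kcnq3 at −2.43. Sodium, calcium and HCN channel subunits had a median of −0.77, with 12 of 31 low and 3 high. Low ones included the pore-forming subunits Hcn2 at −2.51 and Cacna1g at −2.11. The 3 high ones, Scn2b, Scn4b and Scn3b, encode small auxiliary subunits. Genes named Adgr or Gpr, mostly receptors of the G-protein-coupled class, had a median of −0.67 with 18 of 43 low. With GC content and length accounted for, the potassium channel median was −0.34 with 14 low, and the sodium, calcium and HCN median was −0.08 with 7 low, where 12.8% of all genes were.

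Among nuclear proteins, SR proteins, hnRNPs and Clk kinases, which run and regulate splicing, had medians of 1.42, 1.74, 1.83 and 1.55. Of 41 genes, 29 were called high and none low. They took 0.26% ± 0.07 of RNA counts and 0.84% ± 0.05 of RPF counts. Hnrnpd was highest with TE of 2.75, 4.64, 4.94 and 3.63 on RPFs of 215, 222, 226 and 214 CPM, while its RNA ran from 8.01 to 36.2 CPM. Hnrnph1 at 2.85 was also high, and Srsf9 was lowest at −0.71. A median of 3.53% of their windows were shared, and the 21 genes under 5% had a median of 1.40. Immediate early transcription factors had a median of 1.06, with 12 of 23 called high and 2 low. Egr1, induced by synaptic activity, was highest at 2.55 ± 0.50 and Ier2 had 2.18. Fos at 0.93 and Junb at 0.20 were not called, and Jund at −1.36 and Klf4 at −1.23 were low. Histone modifiers and chromatin remodelers had a median of −0.32, with 13 of 69 low, a share near the 16.5% of all genes, and 5 high, from Kat6b at −2.07 to Arid4b at 1.79.

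Chaperones, which fold new proteins, had a median of 0.88, and 32 of 70 were called high against 3 low. They took 1.27% ± 0.21 of RNA counts and 2.50% ± 0.18 of RPF counts. Dnaja1 was highest at 2.996, with 94.8% of its windows shared, Hsp90aa1 had 2.79 and the ER chaperone Hspa5 had 2.18. Dnajc14 was lowest at −2.12. Proteasome subunits had a median of 0.60, with 10 of 35 high and none low, and lysosomal genes of 0.45, with 8 of 45 high, a share near the 15.8% of all genes, and 4 low. With GC content and length accounted for, the proteasome median was 0.19 and none of its genes was called. Nuclear-coded subunits of oxidative phosphorylation had a median of 0.58, with 25 of 77 high and none low. Their highest members were short: Ndufb3 at 2.57, Uqcrq at 2.53 and Ndufa4 at 2.49 have coding sequences of 315, 249 and 249 nt. Glycolytic enzymes had a median of 0.58 with 1 of 17 called, Pgk1 at 1.29.

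Genes of the mTOR pathway itself, which controls TOP mRNAs, had a median of −0.36. Of 20 genes 5 were low and 1 high, where 16.5% and 15.8% of all genes were. Rheb, the GTPase that activates mTOR, was the high one at 1.62 and has a 555 nt coding sequence with 40.5% GC. Among the low ones were Akt1 at −2.33, Akt2 at −1.38, Tsc2 at −1.37 and Rps6kb2 at −1.26. Mtor at −0.94 and Tsc1 at −0.64 were not called, although all 4 replicates of both were below the median gene. With GC content and length accounted for, Tsc2 was at −0.61, Mtor at −0.04 and Rheb at 0.36, none of them called, and Akt1 was still low at −2.04. Of the FMRP family and partners, RNA-binding proteins of dendritic granules, 4 of 9 were high and none low. Fmr1 had TE of 1.01, 1.82, 1.86 and 0.76, and Fxr1 had 1.26, 2.57, 2.76 and 1.16. After GC content and length were accounted for, 2 of the 9 were high. Fmr1 at 0.95 was no longer called, and Fxr1 was still high at 1.58.

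Across genes, TE went with coding length and composition, shown in the plot by deciles. The Spearman rho with coding length was −0.37 for the mean and −0.25 to −0.45 in single replicates. The median TE was 0.88 in the decile with the shortest coding sequences (135 to 573 nt) and −0.64 in the decile with the longest (3615 to 26400 nt). In the shortest decile 45.0% of genes were called high and 5.51% low, and in the longest 3.94% and 33.3%. Coding GC content gave a rho of −0.31 for the mean, and coding adenine content one of 0.38. The decile richest in adenine had a median TE of 0.97, and 48.1% of its genes were called high. Per replicate the rho with adenine ran from 0.15 to 0.53, and was higher in replicates 2 and 3, whose RNA libraries stood apart in GC content. The length of the untranslated regions bore little relation to TE, with rho of −0.07 for the 5′ side and 0.05 for the 3′ side. Their GC content gave rho of −0.19 on the 5′ side and −0.26 on the 3′ side. In the decile with the highest 5′ GC content the median TE was −0.67, and 34.7% of genes were called low. These are descriptions across genes that share libraries.

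**Figure D4:**
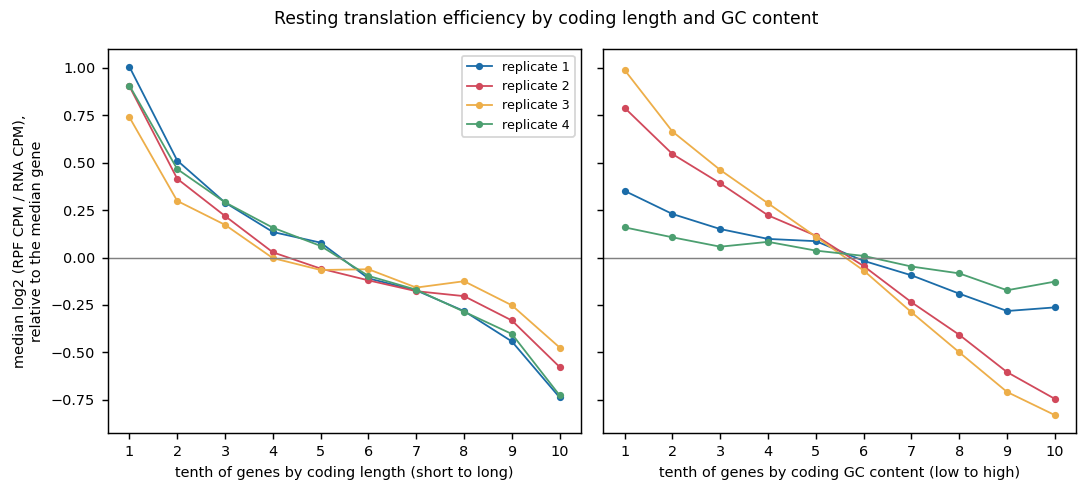
Median TE (log2, relative to the median gene) in deciles of the 10941 genes with annotation, by coding length (left) and coding GC content (right), 1 line for each replicate. TE falls with length in all 4 replicates, less in 2 and 3 (rho of −0.32 and −0.25) than in 1 and 4 (−0.45 and −0.43), and the fall with GC content is steeper in replicates 2 and 3.

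A smooth trend over coding GC content and length was removed from the ratios as an alternative chosen after seeing the data. It left 1161 genes high (10.6%) and 1396 low (12.8%), and 50.3% of the original high calls and 60.3% of the low ones were kept. Ribosomal proteins went further down, to a median of −1.82 with 65 of 82 low, and collagens and laminins up from 0.20 to 0.95, with 13 of 28 high. The medians of neuropeptides at 1.39, splicing proteins at 1.34, immediate early factors at 1.22 and upstream-frame mRNAs at −1.05 stayed beyond 2-fold. That of the oxidative phosphorylation subunits went to −0.02, that of mitochondrial ribosomal proteins to 0.08 and that of chromatin genes to 0.10. Medians that changed sign were also those of initiation factors at −0.10, metabotropic glutamate receptors at 0.02 and selenoproteins at −0.27. So did those of replication-dependent histones at −0.37, frameshifting mRNAs at −0.57 and postsynaptic and dendritic mRNAs at 0.25.

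**Figure D5:**
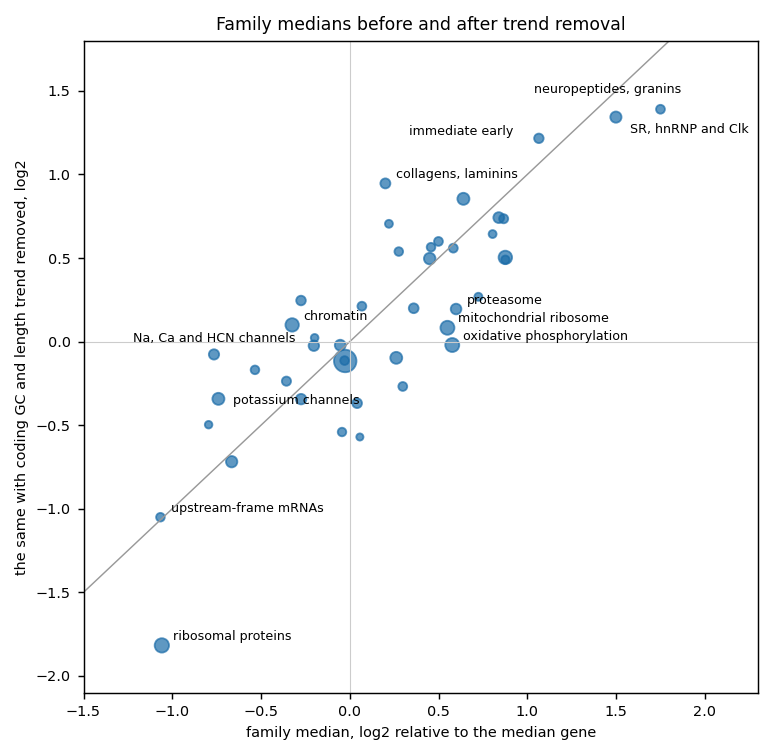
Median TE of each family (log2, relative to the median gene) against the same after a trend over coding GC content and length was removed. Larger points have more genes and the diagonal marks equal values. Neuropeptides and splicing proteins stay at the top right, ribosomal proteins move from −1.06 to −1.82, and oxidative phosphorylation moves from 0.58 to −0.02.

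TE was also scaled by length, dividing RPFs by counted coding length and RNA by transcript length. The methods describe RNA counting over whole transcripts for the differential tests, and counting of both library types over trimmed coding sequences for TE. This gave 2783 genes high (25.4% of 10941) and 2529 low (23.1%), and it widened the SD across genes from 1.06 to 1.503. If RNA had been counted over whole transcripts, the log2 ratio should fall by 1 for each doubling of transcript length over coding length. It rose instead, by 0.07, 0.23, 0.30 and 0.10 in the 4 replicates, near the 0 that counting over coding sequences would give. With both counted over the same coding sequence, dividing each by that length would not change the ratio, so the unscaled ratio is reported here. The length-scaled values rest on a counting basis that the data go against. The unscaled log2 ratio still fell with coding length, with slopes of −0.40, −0.26, −0.17 and −0.37 per doubling in replicates 1 to 4. How much of this fall comes from counting over short coding sequences was not tested. The highest on the length-scaled ratio were Tmsb4x, D10Wsu102e, Cplx2, Gng2 and Tmem167, and the lowest included Rapgef4, Map3k10, Pkd1 and Gal3st1.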

How the data were processed

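The authors removed adapters with cutadapt, filtered reads on ribosomal and transfer RNA with Bowtie2, mapped them to mm10 with TopHat2, kept unique reads without duplicate molecular identifiers and counted them with RSEM. The values deposited by the authors are expected counts per gene, RPFs over RefSeq coding sequences less 30 nt at each end. They were rounded to whole numbers. 12 columns that belong to no sample of the series were not used.

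CPM used library totals. The methods divide each lysate between RPF and RNA. Libraries with the same number were taken as 1 lysate, which the labels do not state, and the number was a block. Each gene was tested with edgeR 4.0.16 (quasi-likelihood test, type of library with replicate as block, two-sided) in R 4.3.3, with limma 3.58.1, and p-values were adjusted by Benjamini-Hochberg over all 10976 genes. Pooled samples make these p-values a measure of spread between pools. DESeq2 1.42.0 was an alternative. The test was checked on simulated counts. Lengths, GC content and coordinates are from GENCODE M21 (GRCm38, the same assembly as mm10), matched by symbol or RefSeq synonym for 10941 genes (99.7%). A window counts as shared when its 30 bases occur in another gene's transcript.

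Named genes were the 10 highest and 10 lowest called genes, 5 and 5 on the length-scaled ratio, each family's highest and lowest, and 53 listed genes, of which 50 were measured. Some of these are not reported here. Others were named after their values were seen. Members, families and lists were chosen with earlier results of these data known. Selenbp1, in the selenoprotein list, binds selenium but is no selenoprotein.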

Additional observations from a re-analysis of the deposited data

Results flagged for a closer look

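A screen of 193 values, the medians of 43 families and the TE of 150 named genes, looked for a replicate far from the other 3. Chance alone puts about 1 in 20 such sets of 4 past the limit used, Dixon's critical value, and 3 of the 193 were past it, all through replicate 4. Camk2a had a TE of 2.14 in replicate 4 against 1.68 to 1.73 in the others. Dnajc14 had −2.34 in replicate 4 against −2.06 to −2.04. Shank2 had 0.50 in replicate 4 against −0.08 to −0.07, so its mean of 0.07 rests on that library and all 3 others are just below the median gene.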

How the results depend on the processing

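Calls of 1733 genes high and 1814 low stayed within 1.5 times under DESeq2 (1724 and 1822), other count minimums, an adjusted p under 0.01 and each replicate left out (1640 to 1859 high, 1727 to 1915 low). TMM and DESeq2 size factors cannot change a centred ratio and were no check. Without the replicate block the counts were again 1733 and 1814, so the pairing changed no call. Testing against the 2-fold margin itself (edgeR glmTreat) gave 1079 and 1125. A minimum of 100 counts gave 947 and 988 of 6693 genes, since fewer were tested, and moved 10 of 43 family medians, among them the FMRP family from 0.80 to 0.42, kinesins and dyneins from −0.20 to 0.07 and tRNA synthetases from −0.05 to 0.09. Lengths as offsets gave 2783 high. Without centring, 1402 were high and 2239 low. On the length-scaled ratio, leaving out a replicate gave 2723 to 2827 high and 2475 to 2574 low, 100 counts gave 1644 and 1438, and no centring gave 5200 and 772. With coding GC content and length accounted for, several family medians changed sign, among them that of oxidative phosphorylation to −0.021. The TE of Tmem167, called high before, changed sign to −0.20 and was no longer called. Another 18 of the 150 named genes lost their call. Without replicate 4 the uncalled means of Shank2, Peg10 and Oaz2, and without replicate 2 that of Eef1b2, changed sign. Depth limits the genes with the fewest counts, whose median SD was 0.38.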

Other observations

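Genes known for 1 cell type were measured in the same slices. Myelin and oligodendrocyte genes had a median TE of 0.87, with 7 of 19 called high and none low, where 15.8% and 16.5% of all genes were. Ermn at 3.07 was highest, and Mbp, the major myelin protein, had 1.96, 1.71, 1.55 and 1.52. Astrocyte genes had a median of 0.50, with 5 of 17 high, among them Sox9 at 2.84 and S100b at 2.21, and Fgfr3 low at −1.26. Microglia genes had a median of −0.03 with Ctss at 1.09 the only call, lost without replicate 3 at 0.99. Endothelial and mural cell genes had 0.28, with 2 of 15 called high, Rgs5 at 2.16 and Vtn at 1.37, a share near that of all genes.

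Kinesin and dynein subunits had a median of −0.20, with 7 of 33 high and 8 low, where 15.8% and 16.5% of all genes were. After coding GC content and length were accounted for, 4 were high and 4 low, where 10.6% and 12.8% of all genes were. Kif1c at −3.51 and Kif5a, a neuronal kinesin, at −2.24 were low, and the small dynein light chain Dynll2 at 2.73 was highest. Kif5a had 2887, 2447, 1865 and 3038 CPM of RNA but 491, 468, 473 and 478 CPM of RPFs. Clustered protocadherins, the cell-recognition proteins of neurons, had a median of 0.64 with 9 of 51 high, a share near the 15.8% of all genes, and none low, from Pcdhac1 at −0.999 to Pcdhb2 at 1.57. Replication-dependent histones had replicate medians of 0.67, −0.11, −0.32 and 0.44, on both sides of the median gene, and the replication-independent ones were above it in every replicate, with H3f3b highest at 2.26.

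Several genes with a disease link were among the listed genes. App, the amyloid precursor, had TE of 1.67, 2.06, 2.12 and 1.64, and Mapt, which encodes tau, 2.298, 2.65, 2.69 and 2.38. Bdnf had 1.82 ± 0.50. All of these were called high. They were listed with earlier results known, and were not compared as a group.

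TE fell with RNA abundance, which is the denominator of the ratio: its median was 0.31 in the decile of genes with the least RNA and −0.26 in the decile with the most. Of the least abundant decile 23.1% were called high and 2.46% low. The count minimum acts on both libraries there, so a scarce gene with few RPFs does not enter, and 412 genes failed through RPFs alone, 674 through RNA alone.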
